A study of Mus musculus with 6 samples.

Results

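The regions described here are the CpG-poor promoters that were accessible in every sample of an ATAC-seq experiment on mouse intestinal crypts. ATAC-seq uses a transposase that inserts sequencing adapters into accessible DNA, and peaks are the stretches in which the resulting fragments pile up above their local background. Crypts hold the stem cells and dividing progenitors of the intestinal epithelium. The study compared 3 wild-type (WT) mice with 3 mice carrying a conditional knockout of Arid3a (cKO), to learn how loss of this transcription factor, which binds A- and T-rich DNA, changed accessible chromatin.

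The cKO animals carried VillinCre-ERT2+/- and Arid3a fl/fl, so that tamoxifen deletes Arid3a in epithelial cells that use the Villin promoter, and cells without Villin keep the gene. The WT animals are given only as Arid3a WT, and whether they carried the Cre transgene is not given in the sources used here. Both genotypes were given tamoxifen daily for 3 days, and crypts were taken 1 month after the first injection. Age and sex are not given. Each sample was a crypt preparation of 1 animal, as far as the labels tell, with 1 list of called peaks.

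The regions were chosen from the peak lists themselves. The 6 lists were merged into 71286 consensus peaks, of which 32748 were called in all 6 samples (shared peaks). Among these, 9967 had their strongest summit between 1000 bp upstream and 100 bp downstream of a protein-coding transcription start site (TSS). The 936 of them with a CpG observed/expected ratio below 0.4 in the window reaching 250 bp to either side of the summit are the CpG-poor promoter peaks, and the other 9031 are called CpG-rich below. The ratio divides the number of CG dinucleotides by the number that the C and G content alone would give. The 936 peaks belonged to 905 genes, 31 of which had more than 1 such peak; 13 peaks also had the TSS of another gene in range, and 17 peaks lay on X and 0 on Y. Since the peak calls and the sequence chose the members, their presence in all samples, their CpG content and their distance to a TSS are given as a description.

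Most promoters of vertebrate genomes lie in CpG islands, stretches of DNA that are kept free of cytosine methylation and so have retained their CG dinucleotides. CpG-island promoters serve housekeeping and developmental genes and are open in most cell types, whether or not the gene is highly transcribed. CpG-poor promoters are commonly methylated in cells that do not use them, more often carry a TATA box, and tend to belong to genes of 1 tissue or differentiated state, with access depending on the transcription factors of that cell.

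The sequences show what a CpG-poor promoter is. The first lines below give 150 bases of the gene strand of GRCm38 next to the TSS or around the summit, 5′ to 3′, with every CG in capitals. Alpi, which encodes intestinal alkaline phosphatase of the brush border, had 1 CG in the window reaching 250 bp to either side of its summit, and none falls in the 150 bases shown (chr1:87101734-87101883, minus strand). Phgr1, an epithelial gene of the intestine, is shown at chr2:118772581-118772730 on the plus strand. Zfp317 is the contrast, the CpG-rich promoter peak with the highest lowest rank over the 6 samples among those whose summit lay in an exon-free window and that had no near-identical copy (chr9:19621952-19622101, plus strand).

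Alpi: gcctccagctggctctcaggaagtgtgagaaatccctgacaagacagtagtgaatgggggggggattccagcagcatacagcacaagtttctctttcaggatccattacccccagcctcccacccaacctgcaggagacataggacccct
Phgr1: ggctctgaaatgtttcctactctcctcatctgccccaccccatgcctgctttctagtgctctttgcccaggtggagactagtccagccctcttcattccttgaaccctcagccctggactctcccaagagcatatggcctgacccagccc
Zfp317: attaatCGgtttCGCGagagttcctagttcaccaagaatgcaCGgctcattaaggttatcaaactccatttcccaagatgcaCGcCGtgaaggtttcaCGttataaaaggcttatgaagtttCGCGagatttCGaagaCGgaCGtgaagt

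The Zfp317 window holds 12 CG dinucleotides against 0 in both CpG-poor windows, although it is the richer in A and T, at 56% of its bases against 44.7% for Alpi and 43.3% for Phgr1. Over the window of 250 bp to either side of the summit the members held a median of 8 CG dinucleotides and the CpG-rich promoter peaks 43. Their median A+T content was 46.9% and 34.7%. A single member held no CG in that window, and the highest number was 20.

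The next lines show 6 of the 10 members with the largest rank shifts without overlap of the genotypes, 3 of the 5 rises and 3 of the 5 falls, described with their values further on. They are a selection and not the 6 largest: Bin1 and Sfta2 shifted up by more than Gramd1b, and Sh3pxd2a shifted down by more than H2-Aa. The first 3 ranked higher in cKO and the last 3 lower. The stretches lie at chr17:26021864-26022013 (Rab11fip3, minus strand), chr6:3988920-3989069 (Tfpi2, minus), chr9:40376422-40376571 (Gramd1b, minus), chr10:20170546-20170695 (Map7, plus), chr17:34287848-34287997 (H2-Aa, minus) and chr5:100572254-100572403 (Plac8, minus). Capitals again mark CG.

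Rab11fip3: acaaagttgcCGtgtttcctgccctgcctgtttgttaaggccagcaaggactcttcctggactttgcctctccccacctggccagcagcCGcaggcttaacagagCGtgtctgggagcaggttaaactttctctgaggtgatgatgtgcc
Tfpi2: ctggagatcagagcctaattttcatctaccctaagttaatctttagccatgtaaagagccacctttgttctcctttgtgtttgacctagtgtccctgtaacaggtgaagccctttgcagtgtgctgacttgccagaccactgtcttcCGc
Gramd1b: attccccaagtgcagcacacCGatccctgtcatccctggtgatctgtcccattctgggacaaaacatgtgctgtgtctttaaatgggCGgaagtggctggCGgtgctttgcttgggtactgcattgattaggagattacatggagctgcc
Map7: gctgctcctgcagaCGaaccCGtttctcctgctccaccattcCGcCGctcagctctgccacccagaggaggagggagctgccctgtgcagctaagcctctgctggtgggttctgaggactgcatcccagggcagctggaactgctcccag
H2-Aa: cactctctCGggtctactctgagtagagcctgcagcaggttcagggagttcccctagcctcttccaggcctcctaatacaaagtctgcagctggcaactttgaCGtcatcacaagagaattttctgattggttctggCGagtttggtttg
Plac8: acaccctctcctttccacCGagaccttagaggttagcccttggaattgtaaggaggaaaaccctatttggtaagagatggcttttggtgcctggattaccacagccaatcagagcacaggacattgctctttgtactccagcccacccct

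These windows held 1 to 4 CG dinucleotides each. All 6 contain the summit, and none overlaps an annotated exon.

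The distribution of CpG content had a main mode of CpG-rich promoters and a low shoulder below it, with no gap at the threshold. The 3 members just inside it were Irf2bp1 at 0.3997, Bcl2l2 at 0.3994 and Cda at 0.3993, and the 3 peaks just outside were Trim15 at the threshold to 4 decimals, Tnfaip8l3 at 0.4001 and Xkr9 at 0.4008. The threshold therefore divides a continuous range.

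**Figure D1:**
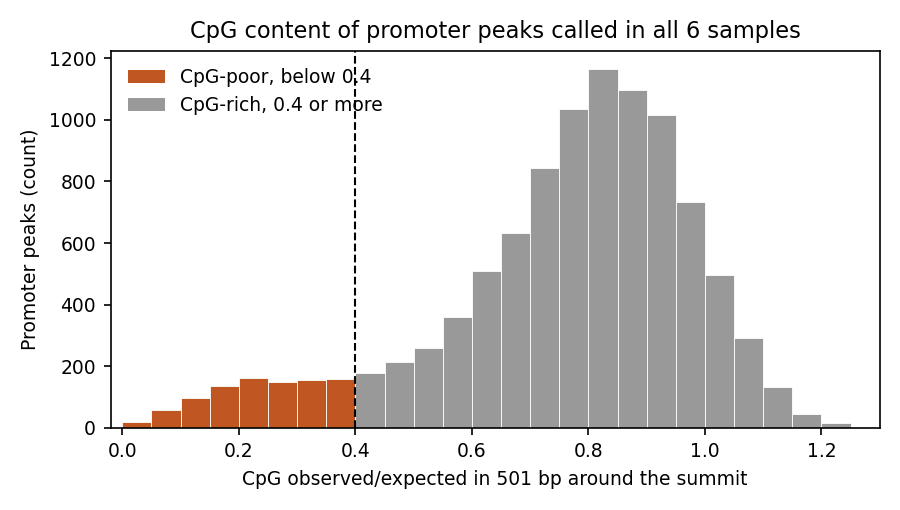
Number of protein-coding promoter peaks called in all 6 samples (vertical axis) in bins of CpG observed/expected ratio (horizontal axis), with the 936 CpG-poor peaks in orange and the 9031 CpG-rich peaks in grey. The CpG-poor peaks form a low shoulder on the left, and the dashed line at 0.4 falls on a slope without a gap.

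CpG-poor promoters were called less uniformly than CpG-rich ones. Of 1710 consensus peaks that met the position and CpG criteria in any number of samples, all 6 samples shared 936 (54.7%), and a single sample held 272 (15.9%). Of 9793 CpG-rich consensus promoter peaks, 9031 (92.2%) were called in all 6. Of the 1710 CpG-poor peaks, 2 were called in all 3 WT and no cKO sample, and 4 in all 3 cKO and no WT sample. The same counts were not made for CpG-rich promoter peaks or for all consensus peaks, so these 2 counts have no background to be read against. Seen from the genes, 7259 of 21829 protein-coding genes had CpG-poor TSSs alone, and 514 of these (7.08%) had a member. Of the 9631 genes with CpG-rich TSSs alone, 6327 (65.7%) had a promoter peak in all 6 samples. A CpG-poor promoter with an accessible summit was thus the exception among genes with such promoters. For 411 members the gene also had a CpG-rich TSS, and 213 members belonged to a gene with a CpG-rich promoter peak in all 6 samples.

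The summits lay upstream of the TSS more often than those of CpG-rich promoters. The median summit was 79 bp upstream (interquartile range −222 to −6 bp), against 20 bp upstream (−105 to 24 bp) for the CpG-rich peaks. In 188 members (20.1%) the summit lay more than 300 bp upstream, compared with 7.34% of CpG-rich peaks, and 22.3% against 39.3% lay at or downstream of the TSS. In 737 members (78.7%) the summits of all 6 samples fell within 250 bp of the strongest one, so for the remaining members the values of different samples refer to points farther apart.

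**Figure D2:**
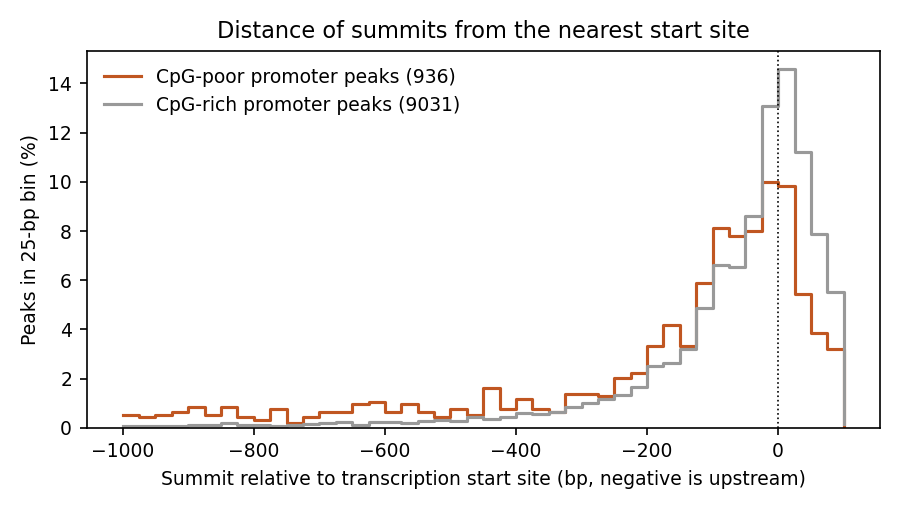
Share of peaks (vertical axis, % per bin of 25 bp) by the distance of the strongest summit from the nearest TSS in bp (horizontal axis, negative values upstream), for the 936 CpG-poor (orange) and 9031 CpG-rich (grey) promoter peaks. Both peak at the TSS, and the CpG-poor curve has the longer upstream tail.

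Short sequence motifs were counted within 100 bp to either side of each summit, on both strands and without mismatches, and shares are given with 95% Wilson intervals that cover counting error only. Peaks are not replicates, so no test was made. The letters of the GC box (GGGCGG), the site of Sp and Klf factors, which itself contains a CG, were present in 18.8% (16.4 to 21.4%) of members and 64.3% (63.3 to 65.3%) of CpG-rich promoter peaks. Those of the CCAAT box were found in 28.1% of both classes. Since members were chosen for few CG around the same summit, a lower share of GC boxes than in CpG-rich peaks is favoured by the rule. In shared peaks more than 5000 bp from a TSS the shares were 11.4% for the GC box and 23.3% for CCAAT.

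Letters of factors known from intestinal epithelium were more frequent in members than in CpG-rich promoters, and were also compared with the 17356 shared distal peaks, which lie more than 5000 bp from a TSS. HNF4 letters (CAAAGTCCA or CAAAGTTCA), the site of a nuclear receptor pair that drives enterocyte genes, were found in 36 members, or 3.85% (2.79 to 5.28%), in 0.299% of CpG-rich and 3.95% of distal peaks. AP-1 letters (TGACTCA or TGAGTCA), the site of Fos and Jun dimers, were found in 8.55% (6.92 to 10.5%) of members, 1.78% of CpG-rich and 11.9% of distal peaks. GATA letters (AGATAA) gave 10.9%, 1.66% and 17.3% in the same order, and CDX letters (TTTATGG or TTTATTG) 6.62%, 1.63% and 12.6%. ARID3 letters (ATCAAA or ATTAAA) were found in 117 members, 12.5% (10.5 to 14.8%), against 3.76% of CpG-rich and 18.3% of distal peaks. KLF letters (GGGTGTGG) were found in 5.24%, 2.41% and 5.07%. The A+T content of the classes rises in the same order, with medians of 34.7% in CpG-rich promoters, 46.9% in members and 51.1% in distal peaks, and its part in the A- and T-rich motifs was not tested. A match is a run of letters and says nothing of binding.

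Members named further on only from the symbol families or for their TATAAA were left out here. Among the other named members, 3 carried HNF4 letters near the summit, and 61 bases around them are printed with the match in capitals. They are Myo1a (chr10:127704590-127704650, plus strand), a myosin of the brush border, Treh (chr9:44673136-44673196, plus), which encodes the enzyme that splits trehalose, and Rab11fip3 (chr17:26021922-26021982, minus).

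Myo1a: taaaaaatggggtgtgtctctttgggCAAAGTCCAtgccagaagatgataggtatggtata
Treh: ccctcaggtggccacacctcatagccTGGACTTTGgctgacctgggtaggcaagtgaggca
Rab11fip3: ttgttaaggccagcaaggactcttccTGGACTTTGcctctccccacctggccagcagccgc

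In Treh and Rab11fip3 the match reads on the opposite strand to the gene.

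The TATA box, bound by the TATA-binding protein and placed about 30 bases before the TSS in the promoters that have one, was sought as TATAAA beginning 40 to 20 bases upstream of the annotated TSS on the gene strand. It was found in 25 members, 2.67% (1.82 to 3.91%), and in 62 CpG-rich promoter peaks, 0.687% (0.536 to 0.879%). The 50 bases before the TSS are shown for 6 of them without an exon in that stretch, with the box in capitals. They are Nqo1 (chr8:107403207-107403256, minus strand), a quinone reductase; Acy3 (chr19:3986520-3986569, plus), an aminoacylase; Adh6a (chr3:138313236-138313285, plus), an alcohol dehydrogenase; Nr0b2 (chr4:133553326-133553375, plus), a repressor in bile acid control; Mgam (chr6:40628781-40628830, plus), the brush-border maltase; and Aqp1 (chr6:55336382-55336431, plus), a water channel.

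Nqo1: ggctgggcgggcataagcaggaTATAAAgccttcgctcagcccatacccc
Acy3: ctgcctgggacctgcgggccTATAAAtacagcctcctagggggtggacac
Adh6a: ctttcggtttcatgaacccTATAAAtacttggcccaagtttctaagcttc
Nr0b2: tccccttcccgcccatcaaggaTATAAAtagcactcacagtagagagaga
Mgam: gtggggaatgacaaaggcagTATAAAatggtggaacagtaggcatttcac
Aqp1: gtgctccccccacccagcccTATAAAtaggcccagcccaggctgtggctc

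The first base of the box lay 28 bases before the TSS in Nqo1 and Nr0b2, 30 in Acy3, Mgam and Aqp1 and 31 in Adh6a. The summit lay at −47 bp from the TSS in Acy3 and between −448 and −106 bp from it in the other 5. Members with a placed TATAAA had a median of 34.8 in rank averaged over the 6 samples, below the medians of the members at large given next.

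Levels were compared through ranks. The value deposited for a peak is the fold of fragments at its summit over the local background, and its scale moves with depth. Each sample's 32748 shared peaks were therefore ranked by this fold, from 0 (lowest) to 100 (highest). The lists held 40492 to 58297 peaks on chromosomes 1 to 19, X and Y, and the genome-wide coverage implied by fold and p was 1.75 to 2.29 fragments per base, highest in cKO 1 and cKO 3. The promoter of Arid3a was CpG-rich and its peak was called in all 6 samples, at ranks of 56.5, 41.5 and 29.7 in WT and 23.1, 40.2 and 24.6 in cKO. These overlap, and because a promoter may lie outside the deleted segment, they do not check the labels. Promoter peaks were called in each sample at 26 or 27 of 32 genes of epithelial identity and barrier and at 26 of 28 stem and proliferation genes, against 2 or 3 of 33 leukocyte and 2 to 4 of 20 mesenchymal and endothelial genes. Secretory genes had them at 5 to 10 of 36 and genes of other tissues at 5 to 7 of 37. A CpG-poor TSS was present in 33 of 33 leukocyte, 27 of 36 secretory, 22 of 32 epithelial and 8 of 28 stem and proliferation genes. The counts therefore do not separate cell content from CpG class.

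The members ranked in the middle of the shared peaks and far below CpG-rich promoters. Their median rank was 44.8, 43 and 41.6 in the WT samples, and 37.7, 44.2 and 39.8 in the cKO samples. Here and below, values of a genotype stand in the order of replicates 1, 2 and 3. The mean of these medians was 43.1 ± 1.64 in WT and 40.6 ± 3.28 in cKO (SD, n = 3), and the genotypes overlapped because cKO 2 lay within the WT range while cKO 1 and cKO 3 lay below it. The CpG-rich promoter peaks had medians of 81.1, 79.6 and 78.6 in WT and 73.5, 80.4 and 74.3 in cKO, with the same 2 cKO samples lowest. The distal peaks went the other way in those samples, with 43.2 and 43 in cKO 1 and cKO 3 and 38.3 to 40.3 in the other 4. The part of coverage, which was highest in cKO 1 and cKO 3, in this difference among samples was not tested.

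**Figure D3:**
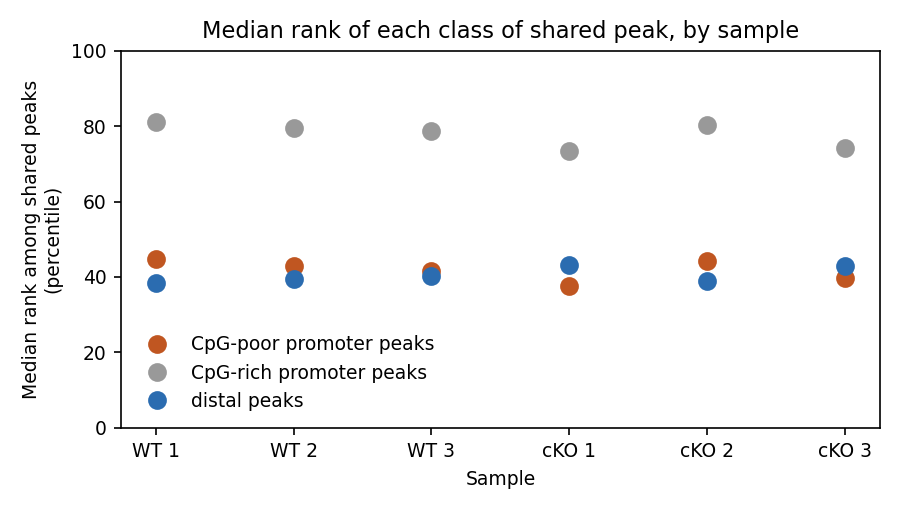
Median rank among the shared peaks (vertical axis, percentile) in each of the 6 samples (horizontal axis) for CpG-poor promoter peaks (orange), CpG-rich promoter peaks (grey) and distal peaks (blue). The CpG-poor promoters lie near 40 in every sample, and cKO 1 and cKO 3 are the lowest samples for both promoter classes.

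In fragments, the median pileup at a member's summit was 37, 57 and 71 in WT and 98, 45 and 71 in cKO. WT 1 thus had the lowest median pileup, although its coverage of 2.11 was above that of cKO 2 (1.75), WT 2 (1.82) and WT 3 (2.01). The median fold was 5.63, 7.55 and 7.62 in WT and 7.29, 6.82 and 6.67 in cKO. The 5% of members with the lowest pileups had at most 15 to 31 fragments by sample, so their ranks rest on few fragments.

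Among the members, rank did not rise steadily with CpG content below 0.3. The 77 members with a ratio under 0.1 had medians of 38.9 to 41.3 in WT and 38.3 to 43.5 in cKO, and those of 0.1 to 0.3, in 2 bins, had medians of 36.8 to 41.9 and 31.7 to 41.5. Members with a ratio of 0.3 to 0.4 had medians of 48.2 to 52.2 and 46.5 to 51.7. Past the threshold the medians went on rising, up to a ratio of about 0.8, without a step at 0.4.

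The strongest members included enzymes and genes of multicopy families. Those with the highest lowest rank in the whole lists were 2610044O15Rik8, Zfp972, Gm14305, Gcdh, Zfp607b, Akr1c19, Akr1c13, Naip6, Golph3l, Akr1c12, Elmo3 and Arhgap32. Gcdh, a mitochondrial enzyme of lysine breakdown, ranked at 99.5, 97.5 and 94.5 in WT and 94.5, 93.6 and 97.4 in cKO. Golph3l, a Golgi protein gene, ranked at 98.4, 98.8 and 96.9 in WT and 90.6, 94.9 and 94.2 in cKO, so its cKO samples all lay below its WT samples. The same windows of 6 of the 12 matched another place on chromosomes 1 to 19, X and Y by at least 90% over at least 80% of their length, 35 places for Gm14305 and 13 for Zfp972. Reads from such copies could not be told apart by position alone, so these ranks are uncertain. Of all members, 61 (6.52%) had a copy, against 0.963% of CpG-rich promoter peaks, and 9 of the 14 members that ranked above 90 in all 6 samples had one. At the other end, 43 members ranked below 10 in all 6.

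The Akr1c genes, which encode aldo-keto reductases acting on steroids and other carbonyls, supplied 3 of these 12 members from 1 cluster on chromosome 13. The 120 bases before the TSS of Akr1c13 (chr13:4191030-4191149, plus strand) and Akr1c12 (chr13:4279434-4279553, minus) and 120 bases around the summit of Akr1c19 (chr13:4233602-4233721, plus) contain no CG at all.

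Akr1c13: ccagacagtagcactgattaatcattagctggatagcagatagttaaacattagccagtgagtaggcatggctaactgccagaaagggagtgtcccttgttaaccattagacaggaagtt
Akr1c12: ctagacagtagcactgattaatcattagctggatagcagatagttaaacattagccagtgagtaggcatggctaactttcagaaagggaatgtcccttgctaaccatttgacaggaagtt
Akr1c19: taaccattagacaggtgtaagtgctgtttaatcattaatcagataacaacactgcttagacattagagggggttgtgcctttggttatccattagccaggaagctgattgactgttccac

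Akr1c12 and Akr1c13 were identical at 114 of 120 bases (95%), and reads from them may be shared. Akr1c19 matched Akr1c13 at 44 of 105 bases at the best ungapped offset and had no copy. It ranked at 97.1, 96.8 and 95.7 in WT and 96.7, 93 and 99 in cKO. The presence of a strong member in this cluster thus did not rest on the near-identical pair.

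The genotype comparison gave no called difference. A limma fit on the normal scores of the ranks, over all 32748 shared peaks, called 0 members higher and 0 lower in cKO at an adjusted p below 0.05, where the share of all shared peaks called was 0% in either direction. The lowest adjusted p was 0.567 over all shared peaks and 0.602 among members. At an unadjusted p below 0.05, 29 members (3.1%) ranked higher and 25 (2.67%) lower in cKO, against 4.83% and 2.39% of all shared peaks. The fit was also made on log2 fold and with the replicate number as a block, and called 1 and 2 shared peaks higher, none of them a member. The members' shares were therefore near or below those of all shared peaks.

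Without a test, 41 members (4.38%) had all 3 cKO ranks above all 3 WT ranks, against 5.86% of all shared peaks, and 57 (6.09%) had all 3 below, against 6.08%. Leaving out any one of the 6 samples raised the first count by over 1.5 times. With cKO 2 left out the counts became 114 and 262, and with WT 3 left out 96 and 156, in a comparison of 5 samples, in which separation is easier to meet. Without cKO 2 the shares were 12.2% and 28% of members, against 16.2% and 23.7% of all shared peaks, and without WT 3 they were 10.3% and 16.7%, against 11.7% and 13.5%. The median shift of a member, the mean cKO rank minus the mean WT rank, was −1.55 by fold and 0.63 when peaks were ranked by the pileup at the summit, so its sign depends on the measure. Its 5th and 95th percentiles by fold were −15.96 and 15.93. The median was −0.64 over all shared peaks, −3.07 over CpG-rich promoter peaks and 1.28 over distal peaks. Of the members, 541 (57.8%) shifted down and 395 (42.2%) up, and for all shared peaks the shares were 53.9% and 46.1%.

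**Figure D4:**
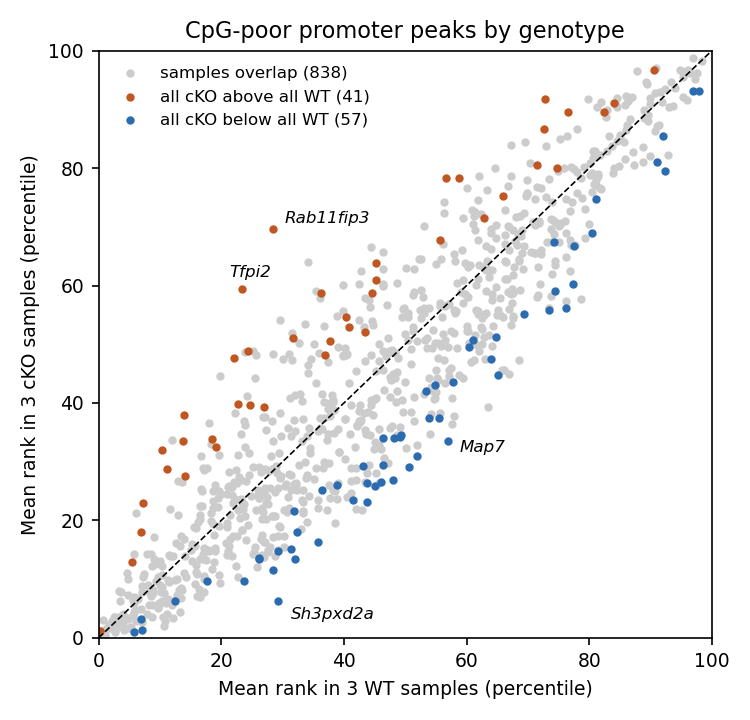
Mean rank of each of the 936 CpG-poor promoter peaks in the 3 WT samples (horizontal axis, percentile) and the 3 cKO samples (vertical axis, percentile). Colour marks the 41 peaks with all cKO above all WT samples (orange) and the 57 with all below (blue), and the dashed line marks equal rank. Most peaks lie near the line, and Rab11fip3 and Tfpi2 lie farthest above it.

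The largest separated rises were at Rab11fip3, Tfpi2, Bin1, Sfta2 and Gramd1b. Rab11fip3, which encodes an effector of the recycling-endosome GTPase Rab11, ranked at 7.24, 33 and 45 in WT and 79.4, 52.7 and 77 in cKO. Its summit pileup was 15, 26 and 36 fragments in WT and 64, 26 and 42 in cKO, and its fold 3.53, 6.64 and 7.95 against 11.4, 7.6 and 9.85. The cKO ranks lay above all WT ranks, while in fold itself cKO 2 lay below WT 3 and in pileup it did not exceed WT 2. The shift of 41.3 had an adjusted p of 0.602 in the limma fit over all shared peaks. Tfpi2, a secreted inhibitor of serine proteases, ranked at 25.2, 17.7 and 27 in WT and 61.8, 36 and 80.7 in cKO, a shift of 36.2 with an adjusted p of 0.602 in limma, on pileups of only 13 to 18 fragments in WT and 16 to 40 in cKO. Gramd1b, which carries cholesterol from the plasma membrane to the endoplasmic reticulum, ranked at 5.22, 18.7 and 18.1 in WT and 42.2, 30.1 and 41.5 in cKO. Bin1, a membrane-bending adaptor, and Sfta2 shifted by 25.5 and 24.5, and the adjusted p of these and of Gramd1b was 0.653 to 0.663 in limma. The largest rises thus occurred at weak to middling peaks, all 5 with WT means of 28.4 or less. With peaks ranked by summit pileup all 5 still shifted up, but by less, at 13.6 for Rab11fip3, 10.7 for Tfpi2, 7.4 for Bin1, 6.9 for Sfta2 and 2.9 for Gramd1b, and by −log10 q the shifts were 8.9 to 24.7.

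The largest separated falls were at Map7, Sh3pxd2a, H2-Aa, Plekha6 and Plac8. Map7, which binds microtubules and recruits kinesin, ranked at 53, 63.7 and 53.8 in WT and 29.3, 45.4 and 25.9 in cKO, a shift of −23.3. H2-Aa, the alpha chain of an MHC class II molecule, ranked at 33, 59.4 and 59.5 in WT and 31.5, 29.2 and 26.7 in cKO, with WT 1 close above cKO 1. Plac8, a small cysteine-rich protein gene of the epithelial list, ranked at 58.7, 46.6 and 50.4 in WT and 24.5, 32.6 and 35.6 in cKO. Sh3pxd2a, a scaffold of invasive membrane protrusions, shifted by −23.1, but the summits of its samples lay up to 1024 bp from the strongest one. Plekha6 shifted by −21.1. Of these 5, the adjusted p in limma was 0.602 for Sh3pxd2a and 0.678 to 0.688 for the others, so none passed the threshold. Ranked by summit pileup the shifts were smaller in Map7 (−9.5), Plekha6 (−5.5) and Plac8 (−3.2), and larger in Sh3pxd2a (−31.2) and H2-Aa (−23.5).

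Genes of absorptive enterocytes, the differentiated cells that take up nutrients, often had a member, though they were few among all members. Of 42 such genes 19 had a member, including 14 of the 26 with CpG-poor TSSs alone, against 7.08% of all genes of that kind. They were of low rank, with list medians of 25.6, 22 and 18.4 in WT and 22.8, 17.2 and 23.5 in cKO over 20 members. Slc7a9, the light subunit of the brush-border transporter of cystine, ranked at 71.8, 58.4 and 59.2 in WT and 49.5, 59.8 and 78.6 in cKO. Vil1, which encodes the microvillar actin bundler villin, ranked at 76.4, 76.1 and 62.7 in WT and 53.1, 74.7 and 47.5 in cKO at its upstream summit. The Cre transgene uses the Villin promoter, and reads from it and from the gene itself cannot be told apart. Cdhr2, a protocadherin that ties microvilli together, ranked at 71.1, 70.6 and 59 in WT and 39.1, 62.3 and 33.3 in cKO, and its partner Cdhr5 at 60.7, 50.1 and 43.8 and 26.6, 55.7 and 41.1. In Vil1, Cdhr2 and Cdhr5 cKO 1 and cKO 3 lay below every WT sample and cKO 2 among them. The other members named from this list, Myo1a, Treh and Alpi, overlapped between the genotypes, and Alpi was the weakest, at 15.3 to 28.3 in WT and 15.1 to 21 in cKO. Of the 20 members 13 shifted down and 7 up by fold, whereas 18 shifted up and 2 down by summit pileup. The median shift was −1.74 by fold, against −0.64 for all shared peaks, and 2.16 by pileup, so no direction can be given for this list. By fold 1 of the 20 members lay wholly above and 1 wholly below the WT samples, where 5.86% and 6.08% of all shared peaks did.

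Genes of epithelial identity and barrier gave 16 genes with 17 members out of 32, including 13 of the 15 with CpG-poor TSSs alone. Their median rank was 43.7, 46.2 and 35.8 in WT and 20.8, 34.1 and 30.2 in cKO, with means of 41.9 ± 5.46 and 28.4 ± 6.83 (SD, n = 3), all 3 cKO medians below all 3 WT medians. Of the 17 members 14 shifted down and 3 up by fold, with a median of −5.26, whereas 6 shifted down and 11 up by summit pileup. By fold 3 of the 17 members lay wholly below the WT samples and 0 wholly above, where 6.08% and 5.86% of all shared peaks did. The strongest was Hnf4g, a nuclear receptor of enterocytes, at 82.5, 90.5 and 93.9 in WT and 89.2, 86.9 and 89.8 in cKO. Gpa33, a surface antigen of intestinal epithelium, ranked at 85.9, 89.1 and 82.9 in WT and 74.3, 85.7 and 84.7 in cKO. Both overlapped between the genotypes.

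Hnf4a, the paralogue of Hnf4g, had 2 members. The one with its summit at base 163506734 of chromosome 2 ranked at 62.9, 60 and 64.5 in WT and 37.6, 74 and 38.4 in cKO, so cKO 2 was the highest of the 6 and the other cKO samples the lowest. The one at base 163547125, named here after its values were seen, ranked at 42.7, 51.2 and 44.1 in WT and 18.5, 34.1 and 27.4 in cKO and did not overlap, with an adjusted p of 0.688 in limma. Phgr1 ranked at 61.8, 52.3 and 52.4 in WT and 28.7, 51 and 32.8 in cKO, a shift of −18.0 with an adjusted p of 0.696 in limma. Tspan8, a tetraspanin, and Elf3, an ETS factor of epithelia, ranked lowest in cKO 1 and cKO 3 as well, at 31.5 and 30.2 and at 20.8 and 23.2. In Tspan8 cKO 2 exceeded all other samples, at 75.2. Ceacam1, an adhesion molecule whose window had 1 copy, ranked at 57.9, 65.6 and 57.6 in WT and 49.3, 61 and 40.7 in cKO.

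With peaks ranked by summit pileup the median shift of the 17 members was 0.89, and ranked by −log10 q 9 shifted up and 8 down, with a median of 0.10. At the upstream Vil1 summit the pileup was 223, 491 and 509 fragments in WT and 712, 324 and 447 in cKO, while the fold was 8.69, 11.7 and 9.8 in WT and 8.61, 10.3 and 7.24 in cKO. Fold divides the pileup by the local background, so the direction of this list depends on which of these is ranked.

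**Figure D5:**
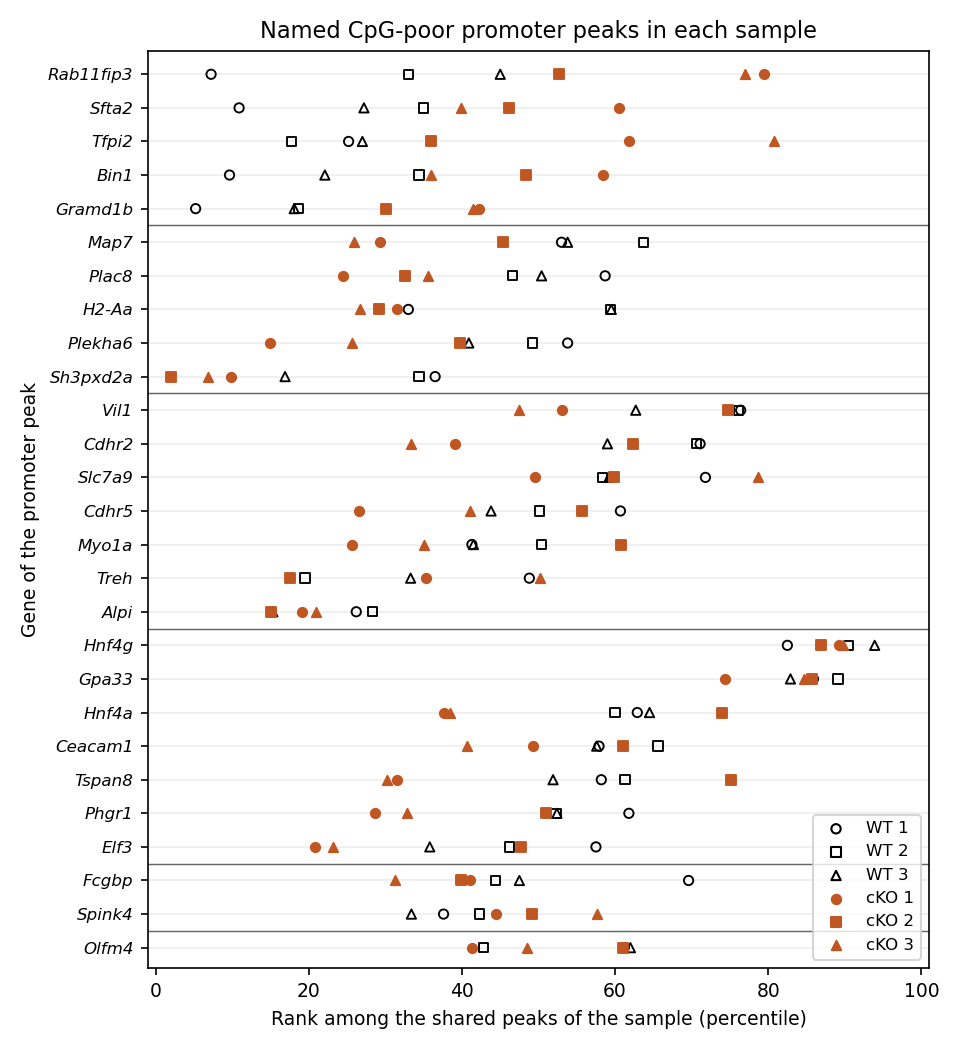
Rank among the shared peaks (horizontal axis, percentile) of named CpG-poor promoter peaks (vertical axis) in each WT (open black) and cKO (filled orange) sample, with marker shape for the replicate number. From top to bottom the blocks hold the largest separated rises, the largest separated falls, and absorptive, epithelial, secretory and stem cell genes; in Vil1, Hnf4a and Tspan8 cKO 2 (square) stands apart from cKO 1 and cKO 3.

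The secretory, stem and non-epithelial lists together held 6 genes with a member. Among genes with CpG-poor TSSs alone a member was found in 2 of 21 secretory, 1 of 1 stem, 2 of 23 other-tissue, 1 of 32 leukocyte and 0 of 11 mesenchymal and endothelial genes, against 7.08% of all such genes. Of all 36 secretory genes 2 had a member, and 24 had no promoter peak in any sample. Fcgbp, a mucus protein of goblet cells, ranked at 69.6, 44.4 and 47.5 in WT and 41, 39.9 and 31.2 in cKO, all below WT. Spink4, a peptide of goblet cells, ranked at 37.6, 42.3 and 33.4 in WT and 44.4, 49.2 and 57.7 in cKO, all above WT. These 2 genes of 1 cell type thus moved in opposite directions, by −16.5 and 12.7. Their adjusted p was 0.711 and 0.739 in limma.

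Of 28 stem and proliferation genes 25 had a CpG-rich promoter peak in all 6 samples and 1 a member. This was Olfm4, a secreted glycoprotein of crypt-base cells, which ranked at 61.2, 42.8 and 62 in WT and 41.3, 61 and 48.5 in cKO. Among 33 leukocyte genes Cd68, a lysosomal protein of macrophages, had a member, at ranks of 0.605 to 8.08 in the 6 samples, and 30 had no promoter peak in any. None of 20 mesenchymal and endothelial genes had a member. Of 37 genes of other tissues Acta1, skeletal muscle actin, and Ttr, a carrier of thyroid hormone, had one, Acta1 at ranks of 10.2 to 32.5. Among the families, 0 of 1133 Olfr and 0 of 330 Vmn receptor genes had a member. None of 84 ribosomal protein genes had one, and 69 of those had a CpG-rich promoter peak instead.

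Families of metabolism and transport also held members. Of all 21829 protein-coding genes 905 had a member. Among genes with CpG-poor TSSs alone a member was found in 16 of 80 Cyp, 7 of 21 Ugt, 16 of 98 Slc and 5 of 9 Gst genes, against 7.08% of all such genes. Of 100 Cyp genes, the cytochrome P450 oxidases, 16 had one, with median ranks of 41.9, 57.6 and 53.4 in WT and 59.7, 49 and 61.7 in cKO. The median shift of these members was −0.72 by fold, with 7 up and 9 down, and 0.78 by summit pileup, with 9 up and 7 down. No direction can be given for the Cyp family. Cyp4f13 was the strongest by lowest rank, at 86.8, 81.6 and 77.1 in WT and 73.5, 80.2 and 76.4 in cKO. Of 22 Ugt genes, which attach glucuronic acid to drugs and bilirubin, 7 had a member, and Ugt1a1 ranked at 37.5, 39.4 and 32.1 in WT and 23.5, 28.1 and 24 in cKO, without overlap. Ugt2b36 lay above WT in cKO, at 62.9, 61.6 and 67.4 against 25.2, 49 and 61.4, with WT 3 and cKO 2 nearly equal, and its window had 1 copy. The family as a whole had list means of 39 ± 5.6 in WT and 39.4 ± 7.65 in cKO (SD, n = 3).

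Of 371 Slc transporter genes 30 had a member, with a median shift of −0.74 over 32 members, of which 12 shifted up and 20 down. By summit pileup the median was 1.19, with 20 up and 12 down, and by −log10 q 2.40, with 23 up and 9 down. By fold it was 0.84 without WT 1 and 1.44 without cKO 1, so no direction can be given for this family. Slc26a3, the chloride-bicarbonate exchanger of the colon and ileum, ranked at 77.7, 75 and 58.9 in WT and 55.2, 72.7 and 69.6 in cKO, and Slc51b, a subunit of the basolateral bile acid exporter, at 53.2, 54 and 61 and 53.8, 55.2 and 55. Of 22 Gst genes, the glutathione transferases, 7 had a member, and Gstm2 ranked at 63.6, 61.7 and 63.3 in WT and 49.1, 36.6 and 68.2 in cKO. The median shift of the 7 Gst members was 2.21 by fold, 3.41 by summit pileup and 4.33 by −log10 q, with 4 members up and 3 down by rank of fold and 3 up and 4 down by log2 fold. Their list medians of rank went the other way, at 62.2, 61.7 and 60.2 in WT and 49.1, 42.1 and 45.4 in cKO. The 2 summaries thus disagreed, and no direction can be given for this family either.

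The Trim, Il and H2- families also held members, all of them in genes with CpG-poor TSSs alone. These were 11 of 31 such Trim, 6 of 55 Il and 5 of 22 H2- genes, against 7.08% of all genes of that kind. Among all 68 Trim genes, many of which restrict viruses, Trim21, an intracellular antibody receptor, ranked at 88.6, 86.6 and 97.2 in WT and 96.1, 87.4 and 94.9 in cKO. Of 82 Il genes 6 had a member. Il17c, an epithelial cytokine, ranked at 78.8, 74.8 and 80.9 in WT and 74, 84.4 and 79.8 in cKO, and Il15 at 91.2, 69.1 and 76.9 and 77.8, 80.9 and 81.8. Il22ra1, the epithelial subunit of the receptor for interleukin-22, ranked at 71.4, 69 and 62.8 in WT and 56, 75.7 and 57.5 in cKO. These overlapped between the genotypes. Of 34 H2- genes 5 had a member and 2 of them lay wholly below WT in cKO, H2-Aa as above and H2-DMb1, which helps to load MHC class II molecules, at 55.8, 54.5 and 32.2 against 59.5, 63.1 and 69.3. Among all shared peaks 6.08% lay wholly below WT. H2-Ab1, the beta chain that pairs with H2-Aa, had 39.6, 51 and 45 in WT and 47.2, 40.9 and 48.3 in cKO. The class II genes in the list thus did not move together.

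Smaller counts came from structural and surface families. Of 53 Krt genes, the keratins of the epithelial cytoskeleton, 3 had a member (Krt19, Krt23 and Krt80), and these shifted by −13.6 to −9.5 with samples that overlapped. Krt80 ranked at 38.9, 22.4 and 15.9 in WT and 6.87, 17.7 and 11.8 in cKO. Of 33 Cldn genes, the claudins of tight junctions, 3 had a member, and Cldn8 lay above WT in cKO, at 63.7, 36.8 and 52.5 against 35.5, 29.2 and 30.2. Of 30 Clec genes, the C-type lectins, 3 had one, and Clec2h lay below WT, at 58.8, 56.6 and 65.1 against 70.5, 86.6 and 75. Its neighbour Clec2e overlapped, at 36.2, 30.9 and 29.7 in WT and 11, 48 and 16.5 in cKO. A member was also found in 5 of 87 Cd, 2 of 61 Serpin and 1 of 17 Tmprss genes. Among genes with CpG-poor TSSs alone the counts were 3 of 34 Krt, 3 of 19 Cldn and 3 of 26 Clec genes. They were 2 of 56 Cd, 2 of 56 Serpin and 1 of 11 Tmprss genes, against 7.08% of all such genes.

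The Zfp genes, which encode zinc-finger proteins, had the highest ranks of the families. Among those with CpG-poor TSSs alone 10 of 57 had a member, against 7.08% of all genes of that kind. Of all 394 Zfp genes 20 had a member, with list medians of 81.3, 81.7 and 86.6 in WT and 94.7, 84.7 and 90.8 in cKO, means of 83.2 ± 2.95 and 90.1 ± 5.06 (SD, n = 3). Of the 20 members 15 shifted up and 5 down by rank, and 11 up and 9 down by log2 fold. By summit pileup 16 shifted up and 4 down, with a median of 3.51, and by −log10 q 17 up and 3 down, with a median of 3.97. Some of these members are neighbours: Zfp458, Zfp595 and Zfp953 had summits at bases 67269117, 67332499 and 67360546 of chromosome 13. The rank shift had a median of 5.13 against −0.64 for all shared peaks. Wholly above WT lay 1 member and wholly below it 1, where 5.86% and 6.08% of all shared peaks did. The windows of 9 had a copy elsewhere. Among the other 11 the median was 5.10 and 7 shifted up, for example Zfp953 at 81.6, 86.3 and 85.5 in WT and 98.4, 82.1 and 95.3 in cKO. The lists' medians overlapped between the genotypes at WT 3 and cKO 2, and without WT 1 the median shift was 1.07, with 12 of 20 up.

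Median shifts by rank of fold were compared between members with and without a motif. By summit pileup, which gave the members a median shift of 0.63 against −1.55 by fold, the motifs were not compared. The 117 members with ARID3 letters had a median shift of −1.48 and the others −1.58. Those with HNF4 letters had −2.07 against −1.55, and those with CDX letters −1.46 against −1.55. In distal peaks the median was higher with ARID3 letters, at 2.20 against 1.07, and with HNF4 letters, at 2.18 against 1.24. For AP-1 letters the medians were −4.03 in the 80 members with them and −1.41 in the others, and in CpG-rich promoter peaks and distal peaks those with AP-1 letters also had the lower median, −5.38 against −3.03 and −1.18 against 1.61. For KLF letters the medians were −2.83 with and −1.49 without them in members, −4.05 and −3.02 in CpG-rich promoter peaks and −1.14 and 1.40 in distal peaks, again lower in peaks with the letters. The GC box was likewise lower in all 3 classes. Its medians were −2.24 and −1.41 in members, −3.62 and −1.92 in CpG-rich promoter peaks and 0.13 and 1.46 in distal peaks. The GC box contains a CG. Among promoter peaks the median shift by fold fell from −0.83 in the CpG ratio bin starting at 0.4 to −5.20 in the bin starting at 1.1. The part of CpG content in the GC-box difference was not tested. GATA letters were mixed, at −2.25 and −1.49 in members, −2.25 and −3.07 in CpG-rich promoter peaks and 1.81 and 1.17 in distal peaks. The medians of the 3 classes differ by as much, and peaks of 1 sample share its library, so these are descriptions without a test.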

How the data were processed

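The authors made ATAC-seq libraries from crypts of 3 WT and 3 Arid3a cKO mice, with 1 peak list per sample and none pooled. Reads were aligned to GRCm38 and narrow peaks called with MACS2, with bedtools also named, per the labels and the study's methods. No input control was described. The deposited lists give for each peak a fold (the ratio of summit pileup to local background) and a −log10 p and −log10 q computed by the authors' caller. The study's test on read counts was not run, since ratios are not counts. The labels were taken to mark separate animals, and p-values otherwise measure only the spread between these samples.

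Peaks outside chromosomes 1 to 19, X and Y (61 to 92 per list) were left out, and the others were ranked by fold within each list and merged at 1 base of overlap. Start sites came from GENCODE M21 and sequence from the GRCm38 assembly of RefSeq. CpG content was taken in 250 bp and motifs in 100 bp to either side of the summit with the highest within-list rank of fold. Sequences are credited to RefSeq, and coordinates are 1-based. Fold among the shared peaks was ranked per sample, converted to normal scores and tested with limma 3.58.1 under R 4.3.3 (empirical Bayes with trend, two-sided, all 6 samples, no covariate, Benjamini-Hochberg over all shared peaks, threshold 0.05). The fit was tested on simulated data first. A rank percentile has no true zero, so differences and not folds are given. With 3 samples against 3 an exact permutation test cannot go below 0.1, so none is given.

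Pileups were recovered from fold and p, whose Poisson relation gave a whole number (within 0.002 of −log10 p) for 100% of peaks in each list. Coverage is the commonest background value among the peaks of a list. It was shared by a minority of peaks, from 1511 of 40492 in WT 1 to 7854 of 58297 in cKO 1. The total depth is otherwise unknown. Copies were sought with blastn 2.17.0 (90% identity over 80% of the CpG window), and 34 members matched only unplaced or alternate sequence, which was not counted. Python 3.11.15 was used with numpy 2.4.6, pandas 2.3.3, scipy 1.17.1, pysam 0.24.0 and matplotlib 3.10.9.

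The members, gene lists, motifs and named genes were chosen with earlier results of these data known. Genes were named by these rules: the 12 members with the highest lowest within-list percentile, the 5 largest shifts of either sign among members whose genotypes did not overlap, at most 8 members per marker list and symbol family by lowest percentile (1 gene among these is not reported here), and the 3 peaks on either side of the CpG threshold. From the families only some of the genes this rule names are given, as examples chosen after their values were seen. Further genes were named for their TATAAA or HNF4 letters. Alternatives were other CpG limits and windows, other merging and transcripts, other measures and filters, leaving out each sample and the replicate block. Ranking by summit pileup, leaving out members with a copy and keeping members with all summits within 250 bp were chosen after seeing the data.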

Additional observations from a re-analysis of the deposited data

How the results depend on the processing

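The number of CpG-poor promoter peaks was 622 with a CpG ratio below 0.3 and 814 to 1330 under the other definitions. Leaving out 1 sample gave 947 to 1042 peaks, the most without WT 1. The fit called 0 members under each alternative for which it was run: other measures and filters, chromosomes 1 to 19, lists of equal length, samples left out and the replicate block. It was not run for other CpG limits or windows, merging, transcripts or member filters. Over all shared peaks it called 1 peak higher in cKO on log2 fold and 2 with the replicate block, and 0 otherwise. The replicate numbers share only a label, with correlations of −0.27, −0.00493 and 0.122 between same-numbered samples, and the block changed no call of a member. Members not overlapping numbered 66 to 114 higher and 82 to 262 lower with 1 sample left out, both most without cKO 2, where fewer samples make separation easier, and 65 higher when ranked by summit pileup. Of all shared peaks 8.5 to 16.2% were higher and 8.76 to 23.7% lower with 1 sample left out, and by pileup 6.68% were higher, against 6.94% of members. The median shift of members ranged from −2.76 to 0.63 over the alternatives. Of 20 named shifts, 15 kept their sign under each alternative that gave a value. The 5 largest rises and Sh3pxd2a gave none at −log10 q of at least 5, Gramd1b and Sh3pxd2a none without the lowest-ranked 25% of peaks and Sh3pxd2a none with lists of equal length. By summit pileup the shift was 0.00 for Vil1, 2.1 for Cdhr5, 0.89 for Ceacam1, 2.0 for Hnf4a and 3.5 for Tspan8, and by −log10 q it was 0.80 for Cdhr5, 0.10 for Hnf4a and 1.2 for Tspan8, all against a fall by fold; the cause was not tested. In the wider window used for CpG content, which holds more letters by construction, the shares of members were 16.8% for TATAAA, 50.1% for CCAAT, 15% for AP-1, 6.3% for HNF4, 28.6% for ARID3, 23.2% for GATA, 12.7% for CDX, 30.2% for the GC box and 10% for KLF letters. Depth limits members of low pileup, whereas a low rank of fold need not mean few fragments. For example, the Neurl3 peak with its summit at base 36274614 of chromosome 1 ranked at 1.94 to 13.5 on pileups of 73 to 197 fragments. It is named here after its values were seen. A promoter without a called peak may be accessible below the caller's threshold.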
